A study of Mus musculus with 24 samples.

Results

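The Kruppel-like factors examined here are 10 transcription factor genes, Klf2, Klf4, Klf5, Klf6, Klf7, Klf9, Klf10, Klf11, Klf13 and Klf15. They were read by the 28 probe sets annotated to 1 of these genes alone, of 45101 probe sets on the array, and were tested among 18194 genes. Klf9 had 7 probe sets, Klf6 had 5, Klf7 had 4, Klf5 and Klf13 had 3 each, Klf4 had 2, and the other members had 1. Values of a gene's probe sets were averaged. RNA came from primary cortical neurons of mouse embryos (E18), 1 week into culture, after 2 h or 12 h of treatment. At each time the treatments were BDNF (50 ng per ml) with IBET858 (1 µM), BDNF alone, IBET858 alone, and the solvent DMSO, with 3 arrays in each of the 8 groups. BDNF is brain-derived neurotrophic factor, which signals through the TrkB receptor, and IBET858 blocks BET proteins, which read acetylated histones and promote transcription. The strain, the sex of the embryos, any pooling and any remaining glia are not given in the sources used here. No source states that numbered replicates were cultured separately, and the p-values therefore reflect only the spread among these samples, which may be technical.

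Kruppel-like factors share zinc fingers at the carboxyl end, with which they bind GC-rich and CACCC sequences, and differ in the remainder of the protein, which recruits coactivators or corepressors. KLF2, KLF4, KLF5, KLF6 and KLF7 act mostly as activators, although KLF4 also represses. KLF9, KLF10, KLF11 and KLF13 bind the corepressor SIN3A. In neurons several members are activity-induced, and in mouse retinal ganglion cells KLF4 and KLF9 limit axon growth, while KLF6 and KLF7 promote it.

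The values are log2 intensities from which the authors' table had removed the level of every probe set, so that a value of 0 is the median of the 24 arrays for that probe set. They show differences between arrays and not how abundant a transcript was, and levels of different genes cannot be compared. For the same reason the presence of neurons cannot be read from marker levels. An array standing apart was DMSO at 2 h replicate 1, whose spread around its group mean over all genes was 0.178 log2 units. IBET858 at 12 h replicate 3 followed at 0.157, and the other arrays lay between 0.072 and 0.117. DMSO at 2 h replicate 1 was 0.61 above its group mean for Klf10 and 0.30 below it for Klf5, so results against DMSO at 2 h are given without it where it changed a call or moved a called value by over 1.5 times. The number of arrays limits the precision. In bulk RNA, fewer cells of a type and less RNA per cell cannot be told apart.

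The promoters of 4 members are shown as examples of some of the responses described below. Klf2 and Klf4 rose under each agent, Klf9 at 2 h rose under BDNF and fell under IBET858, and Klf11 fell under each. Other responses, such as the late rise of Klf15, are not among them. Each sequence runs 5′ to 3′ on the strand of the gene, from 250 bases before to 50 bases after the start of the transcript, and is from RefSeq, build GRCm38.p6. The table of promoters held 8 of the 10 members, all except Klf5 and Klf10. Capitals mark the core of the cyclic AMP response element (TGACG), the CCAAT box and the MEF2 box, on either strand.
Klf2 promoter (chr8:72318812-72319111, plus strand): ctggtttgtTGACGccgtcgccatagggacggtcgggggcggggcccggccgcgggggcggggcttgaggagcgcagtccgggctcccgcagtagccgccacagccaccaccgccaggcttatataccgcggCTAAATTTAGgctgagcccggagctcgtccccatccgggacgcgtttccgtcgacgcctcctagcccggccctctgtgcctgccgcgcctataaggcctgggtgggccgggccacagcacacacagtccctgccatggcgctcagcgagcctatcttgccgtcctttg
Klf4 promoter (chr4:55532426-55532725, minus strand): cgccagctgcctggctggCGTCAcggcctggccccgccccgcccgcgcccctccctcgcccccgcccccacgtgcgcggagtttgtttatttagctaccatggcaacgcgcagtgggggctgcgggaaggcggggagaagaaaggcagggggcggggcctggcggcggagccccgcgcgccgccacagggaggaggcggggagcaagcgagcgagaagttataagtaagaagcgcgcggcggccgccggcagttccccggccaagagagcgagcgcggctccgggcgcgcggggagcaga
Klf9 promoter (chr19:23140976-23141275, plus strand): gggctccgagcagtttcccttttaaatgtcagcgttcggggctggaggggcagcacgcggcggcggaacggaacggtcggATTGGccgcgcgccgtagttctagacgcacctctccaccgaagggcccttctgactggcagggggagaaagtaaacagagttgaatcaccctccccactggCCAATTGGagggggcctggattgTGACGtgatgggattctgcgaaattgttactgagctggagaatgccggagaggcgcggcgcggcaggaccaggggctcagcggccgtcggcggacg
Klf11 promoter (chr12:24651121-24651420, plus strand): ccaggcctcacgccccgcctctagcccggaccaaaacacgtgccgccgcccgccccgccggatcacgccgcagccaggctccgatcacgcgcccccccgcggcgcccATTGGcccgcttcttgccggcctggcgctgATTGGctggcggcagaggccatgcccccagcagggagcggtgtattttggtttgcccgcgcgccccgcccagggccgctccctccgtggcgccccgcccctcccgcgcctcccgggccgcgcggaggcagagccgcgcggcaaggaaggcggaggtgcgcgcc
The core TGACG occurred in 5 of the 8 promoters, those of Klf2, Klf4, Klf9, Klf13 and Klf15, against 20.8% of 32851 promoters of the same length. The promoter of Klf2 alone held a MEF2 box, whose first base lay at position -118 from the start, and 3.19% of all promoters held one. MEF2 factors are known activators of Klf2 and Klf4. CCAAT occurred in 5 of 8, with 4 copies in Klf6, 3 in Klf9 and 2 each in Klf11 and Klf13, against 37.4% of all promoters. The copies in Klf9 include 2 that overlap on opposite strands. The GC box GGGCGG occurred in 7 of 8 (35.7% of all) and the CACCC box CACCC in 5 of 8 (57.5% of all). The E box CACGTG occurred in 4 of 8, with 3 copies in Klf15 (7.15% of all). The full element TGACGTCA, the AP-1 site TGACTCA, the CArG box of serum response factor and the TATA box TATAAA occurred in 0 of 8, against 1.79%, 5.2%, 1.63% and 13.6% of all promoters. The TATA box was searched as TATAAA only, and the windows of Klf2 and Klf4 hold TATAAG, which was not counted. Both strands were searched, TGACG is contained in TGACGTCA, and matches of different motifs may share bases. These windows were richer in GC than most: Klf11 had 77.7% GC, Klf4 74.3%, Klf2 69.3% and Klf9 63.3%, against a median of 52.7% over all promoters. A match is a description of the letters and not a measured binding site.

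**Figure D1:**
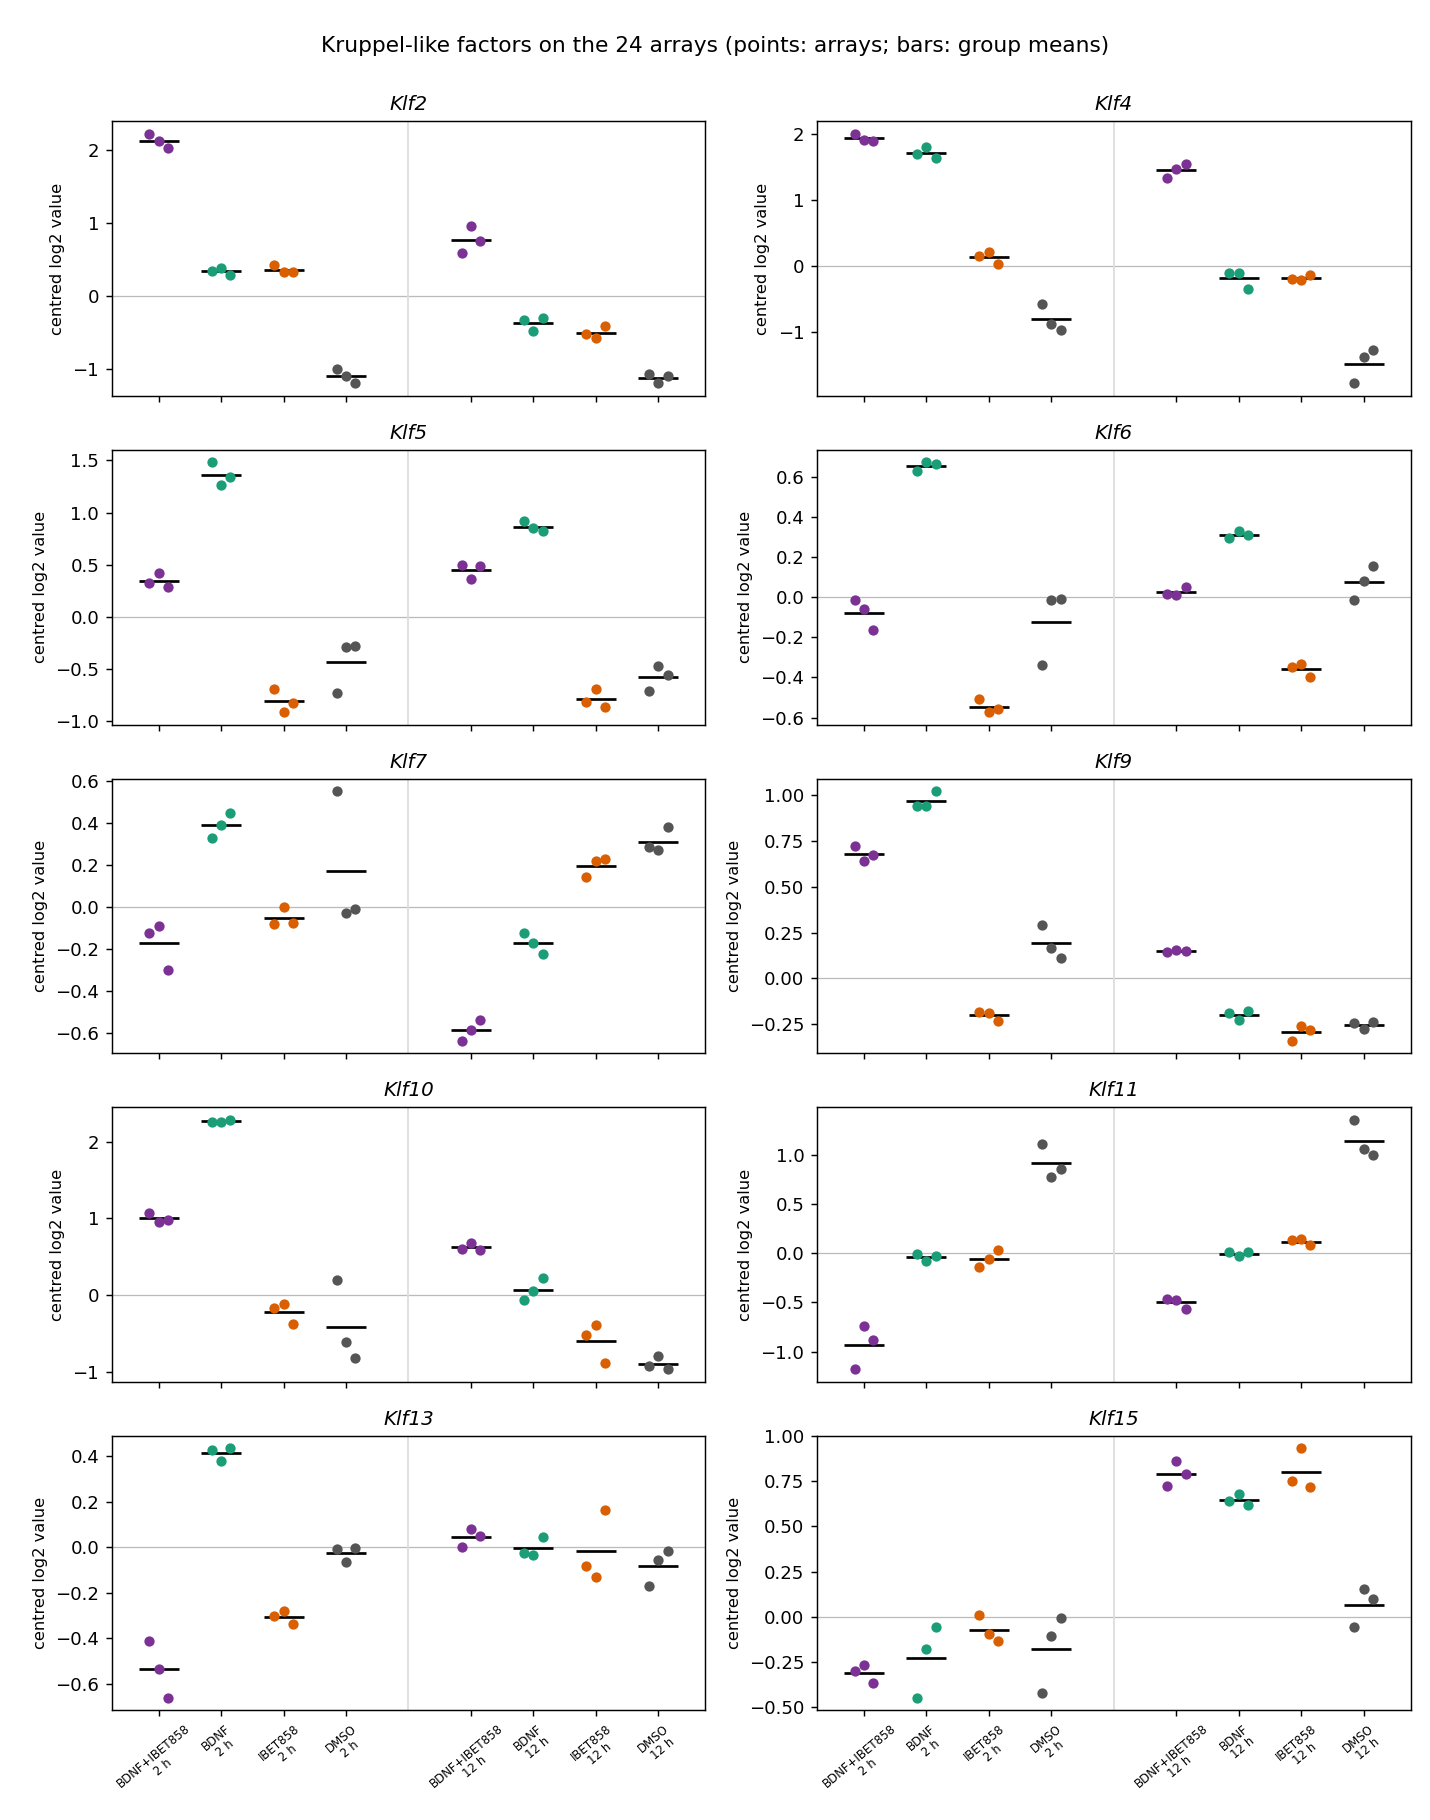
Centred log2 value (vertical axis) of the 10 genes on each of the 24 arrays (points) by treatment and time, with the mean of each group as a bar. Klf2 and Klf4 were lowest with DMSO and highest with both agents at 2 h, Klf11 ran the other way, and Klf15 was raised at 12 h only.

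Klf2 rose under each agent and furthest under both. KLF2 is best known for keeping endothelial cells and T cells quiescent and for its induction by fluid flow. Its 1 probe set at 2 h gave 2.23, 2.13 and 2.04 with both agents, 0.34, 0.39 and 0.29 with BDNF, 0.42, 0.33 and 0.34 with IBET858 and -0.99, -1.09 and -1.19 with DMSO. BDNF and IBET858 arrays overlapped each other, both groups lay above all DMSO arrays, and the arrays with both agents lay above all others. IBET858 alone raised Klf2 2.75-fold (log2 difference and its standard error from the limma model, 1.46 ± 0.08, adjusted p = 3.36e-11), and BDNF alone 2.7-fold (1.43 ± 0.08, adjusted p = 1.12e-11). With both agents Klf2 was 9.34-fold above DMSO (3.22 ± 0.08, adjusted p = 6.76e-18). At 12 h the values were 0.59, 0.96 and 0.76 with both agents, -0.33, -0.47 and -0.29 with BDNF, -0.51, -0.58 and -0.40 with IBET858 and -1.07, -1.18 and -1.09 with DMSO. All treated arrays again lay above all DMSO arrays, by less than at 2 h. The rise was 0.62 ± 0.08, adjusted p = 1.21e-06 for IBET858 against DMSO, 0.75 ± 0.08, adjusted p = 1.15e-07 for BDNF against DMSO and 1.88 ± 0.08, adjusted p = 1.96e-14 for both agents against DMSO.

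Klf4 followed a similar pattern with a stronger response to BDNF. KLF4 is one of the factors used to reprogramme cells to pluripotency and restrains proliferation. At 2 h it stood at 2.01, 1.92 and 1.89 with both agents, 1.71, 1.81 and 1.64 with BDNF, 0.16, 0.21 and 0.04 with IBET858 and -0.58, -0.88 and -0.97 with DMSO. No 2 of these groups overlapped, and the 2 upper ones lay close together. BDNF raised Klf4 5.77-fold (2.53 ± 0.11, adjusted p = 1.92e-13), and IBET858 raised it 1.92-fold (0.94 ± 0.11, adjusted p = 1.6e-06). Adding IBET858 to BDNF at 2 h gave 0.22 ± 0.11, adjusted p = 0.154, which did not pass the threshold although the 3 arrays lay above the 3 BDNF arrays. It passed with array weights (0.24, adjusted p = 0.0455) and in a fit of these groups alone (0.22, adjusted p = 0.0283). At 12 h Klf4 stood at 1.33, 1.47 and 1.56 with both agents, -0.11, -0.10 and -0.35 with BDNF, -0.20, -0.21 and -0.14 with IBET858 and -1.78, -1.38 and -1.28 with DMSO. The BDNF and IBET858 arrays overlapped each other, between the other groups. Klf4 was 2.45-fold above DMSO for BDNF (1.29 ± 0.11, adjusted p = 4.67e-09) and 2.46-fold for IBET858 (1.30 ± 0.11, adjusted p = 2.72e-09). Both together were 7.63-fold above DMSO (2.93 ± 0.11, adjusted p = 3.12e-15), and adding IBET858 to BDNF raised Klf4 (1.64 ± 0.11, adjusted p = 5.05e-11).

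Klf5, Klf6 and Klf7 were lower in the BDNF cultures that also received IBET858 than in those with BDNF alone, at both times. KLF5 drives proliferation and growth in epithelium and smooth muscle. With 2 h of treatment Klf5 stood at 0.33, 0.42 and 0.29 with both agents, 1.48, 1.27 and 1.34 with BDNF, -0.69, -0.91 and -0.82 with IBET858 and -0.73, -0.28 and -0.28 with DMSO. The BDNF arrays lay above all others, and 1 DMSO array, replicate 1, lay within the IBET858 arrays. BDNF raised Klf5 3.47-fold (1.80 ± 0.098, adjusted p = 8.21e-12), and adding IBET858 to BDNF lowered it (-1.02 ± 0.098, adjusted p = 3.65e-08). IBET858 alone gave -0.38 ± 0.098, adjusted p = 0.0097. That last call was lost without DMSO replicate 2 (-0.30, adjusted p = 0.0645), without DMSO replicate 3 (-0.30, adjusted p = 0.0595) and without IBET858 replicate 2 (-0.32, adjusted p = 0.0615). It was also lost in a fit of the 2 groups alone (adjusted p = 0.139) and with plain probe sets only (-0.29, adjusted p = 0.0506). At 12 h Klf5 stood at 0.50, 0.37 and 0.49 with both agents, 0.92, 0.85 and 0.82 with BDNF, -0.82, -0.69 and -0.86 with IBET858 and -0.71, -0.47 and -0.55 with DMSO. The BDNF arrays were again highest, and the IBET858 and DMSO arrays overlapped. The BDNF rise was still 2.71-fold (1.44 ± 0.098, adjusted p = 1.6e-10), adding IBET858 to BDNF gave -0.41 ± 0.098, adjusted p = 0.00125, and IBET858 against DMSO gave -0.21 ± 0.098, adjusted p = 0.0773. With plain probe sets only, the difference between both agents and BDNF at 12 h was -0.25, adjusted p = 0.0429. Without DMSO at 12 h replicate 1 the difference between IBET858 and DMSO was -0.28, adjusted p = 0.0403, and without DMSO at 2 h replicate 1, which changes only the shared spread, it passed at adjusted p = 0.0179.

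Klf6, a regulator of injury responses and of axon growth, moved in opposite directions under the 2 agents. At 2 h Klf6 stood at -0.012, -0.057 and -0.16 with both agents, 0.63, 0.67 and 0.66 with BDNF, -0.51, -0.57 and -0.56 with IBET858 and -0.34, -0.013 and -0.011 with DMSO. BDNF lay above and IBET858 below all DMSO arrays, and the arrays with both agents overlapped DMSO. The differences were 0.78 ± 0.069, adjusted p = 1.55e-08 for BDNF against DMSO, -0.43 ± 0.069, adjusted p = 0.000105 for IBET858 against DMSO, and -0.73 ± 0.069, adjusted p = 2.54e-08 for both agents against BDNF. Both agents against DMSO gave 0.044 ± 0.069, adjusted p = 0.621. At 12 h Klf6 stood at 0.015, 0.011 and 0.051 with both agents, 0.29, 0.33 and 0.31 with BDNF, -0.35, -0.33 and -0.40 with IBET858 and -0.011, 0.082 and 0.16 with DMSO. BDNF was again highest and IBET858 lowest, and the arrays with both agents again lay within the range of DMSO. The differences were 0.24 ± 0.069, adjusted p = 0.00797 for BDNF, -0.43 ± 0.069, adjusted p = 1.61e-05 for IBET858, and -0.29 ± 0.069, adjusted p = 0.00137 for both agents against BDNF. The BDNF call at 12 h was lost without DMSO replicate 1 (0.19, adjusted p = 0.052). Singly, 2 of the 5 probe sets of Klf6 were called higher with BDNF at 12 h, and the values ran from 0.093 to 0.45.

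Klf7, which promotes axon growth, fell at 12 h with BDNF and was lower still with both agents. At 12 h it stood at -0.64, -0.59 and -0.54 with both agents, -0.12, -0.17 and -0.22 with BDNF, 0.14, 0.22 and 0.23 with IBET858 and 0.29, 0.27 and 0.38 with DMSO. The 4 groups at 12 h did not overlap. BDNF lowered Klf7 (-0.48 ± 0.10, adjusted p = 0.000484), both agents lowered it further against DMSO (-0.90 ± 0.10, adjusted p = 1.04e-07), and IBET858 alone gave -0.12 ± 0.10, adjusted p = 0.361. The IBET858 mean averages probe sets that differ: 2 of the 4 were called lower, and the values ran from -0.31 to 0.19. At 2 h Klf7 stood at -0.13, -0.092 and -0.30 with both agents, 0.33, 0.39 and 0.45 with BDNF, -0.08, 0.00061 and -0.077 with IBET858 and 0.55, -0.03 and -0.0085 with DMSO. DMSO replicate 1 lay above all BDNF arrays, and the other 2 DMSO arrays lay among those with IBET858. Both agents against BDNF gave -0.56 ± 0.10, adjusted p = 0.000167, while BDNF against DMSO gave 0.22 ± 0.10, adjusted p = 0.121 with all arrays and 0.41, adjusted p = 3.87e-05 without DMSO replicate 1. IBET858 against DMSO gave -0.22 ± 0.10, adjusted p = 0.16, and -0.32, adjusted p = 0.0429 without DMSO replicate 2. Both agents against DMSO gave -0.34 ± 0.10, adjusted p = 0.00985, which was no longer called without DMSO replicate 1 (-0.15, adjusted p = 0.0585), without replicate 3 of both agents (-0.28, adjusted p = 0.0567) and in a fit of the 2 groups alone (adjusted p = 0.128). With array weights it was -0.17, adjusted p = 0.0238.

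Among the members that bind SIN3A, Klf9, Klf10 and Klf13 rose early with BDNF and Klf11 fell. KLF10, also known as TGF-beta inducible early gene, had, with Klf4, the largest BDNF rises of the 10 at 2 h. At 2 h Klf10 stood at 1.08, 0.95 and 0.98 with both agents, 2.25, 2.25 and 2.29 with BDNF, -0.16, -0.11 and -0.37 with IBET858 and 0.20, -0.60 and -0.82 with DMSO. The BDNF arrays lay close together and far above the others, and DMSO replicate 1 lay above the IBET858 arrays. BDNF raised Klf10 6.36-fold (2.67 ± 0.17, adjusted p = 7.98e-11), and adding IBET858 to BDNF lowered it 2.4-fold (-1.26 ± 0.17, adjusted p = 3.69e-06). IBET858 against DMSO gave 0.19 ± 0.17, adjusted p = 0.505, and 0.50, adjusted p = 0.00382 without DMSO replicate 1. At 12 h Klf10 stood at 0.60, 0.68 and 0.59 with both agents, -0.056, 0.056 and 0.22 with BDNF, -0.52, -0.39 and -0.88 with IBET858 and -0.92, -0.79 and -0.96 with DMSO. The IBET858 and DMSO arrays overlapped, and all arrays with both agents now lay above all BDNF arrays. Both agents against BDNF gave 0.55 ± 0.17, adjusted p = 0.00903, and BDNF was 1.95-fold above DMSO (0.96 ± 0.17, adjusted p = 6.54e-05). IBET858 against DMSO at 12 h gave 0.29 ± 0.17, adjusted p = 0.155, and 0.44, adjusted p = 0.000293 without the 2 arrays that stood apart. Without DMSO at 2 h replicate 1 alone, which changes only the shared spread, it passed at adjusted p = 0.0197.

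Klf9, induced by thyroid hormone and glucocorticoids in the brain, was highest with BDNF at 2 h. Its spread between replicate arrays was the smallest of the 10 members. Klf9 is a mean of 7 probe sets, the most of any member, and the part of that number in its spread was not tested. With DMSO at 12 h the standard deviation was 0.021 for the mean. It ran from 0.029 (1428288_at) to 0.27 (1436952_at) for single probe sets. At 2 h Klf9 stood at 0.72, 0.64 and 0.67 with both agents, 0.94, 0.94 and 1.02 with BDNF, -0.19, -0.19 and -0.23 with IBET858 and 0.29, 0.17 and 0.11 with DMSO, and no 2 of these groups overlapped. BDNF raised it (0.78 ± 0.048, adjusted p = 7.09e-11), IBET858 lowered it against DMSO (-0.39 ± 0.048, adjusted p = 3.28e-06), and IBET858 added to BDNF lowered it as well (-0.29 ± 0.048, adjusted p = 6.8e-05). At 12 h Klf9 stood at 0.15, 0.15 and 0.15 with both agents, -0.19, -0.23 and -0.18 with BDNF, -0.34, -0.26 and -0.28 with IBET858 and -0.24, -0.28 and -0.24 with DMSO. The arrays with both agents lay above all others at that time. Neither agent alone passed the test (BDNF 0.053 ± 0.048, adjusted p = 0.437, IBET858 -0.043 ± 0.048, adjusted p = 0.481), and both together were higher than DMSO (0.40 ± 0.048, adjusted p = 2.61e-07). The IBET858 mean at 12 h averages probe sets that differ: 1428288_at fell (-0.26 ± 0.059), 1452723_at rose (0.31 ± 0.11) and the other 5 were not called.

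Klf11, linked to diabetes in humans and a relative of KLF10, was lower in every treated group than in DMSO. Klf11 at 2 h stood at -1.18, -0.74 and -0.88 with both agents, -0.0085, -0.084 and -0.031 with BDNF, -0.14, -0.059 and 0.031 with IBET858 and 1.11, 0.78 and 0.85 with DMSO. The BDNF and IBET858 arrays overlapped each other, below all DMSO arrays and above all arrays with both agents. BDNF lowered Klf11 1.94-fold (-0.95 ± 0.099, adjusted p = 1.62e-07), IBET858 lowered it 1.95-fold (-0.97 ± 0.099, adjusted p = 2.54e-07), and both agents lowered it 3.59-fold (-1.84 ± 0.099, adjusted p = 2.17e-12), each against DMSO. At 12 h Klf11 stood at -0.46, -0.48 and -0.57 with both agents, 0.0085, -0.032 and 0.0099 with BDNF, 0.13, 0.14 and 0.081 with IBET858 and 1.36, 1.06 and 1.00 with DMSO. No 2 of these groups overlapped, with both agents lowest and DMSO highest. The falls were -1.14 ± 0.099, adjusted p = 5.69e-09 for BDNF, -1.02 ± 0.099, adjusted p = 1.87e-08 for IBET858 and -1.64 ± 0.099, adjusted p = 5.31e-12 for both agents, each against DMSO.

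Klf13, a regulator of T cell chemokine and heart genes, responded at 2 h, while no pairwise difference passed at 12 h. Klf13 at 2 h stood at -0.41, -0.54 and -0.66 with both agents, 0.43, 0.38 and 0.44 with BDNF, -0.30, -0.28 and -0.34 with IBET858 and -0.0093, -0.066 and -0.0032 with DMSO, and no 2 of these groups overlapped. BDNF raised it (0.44 ± 0.069, adjusted p = 3.71e-05), IBET858 lowered it (-0.28 ± 0.069, adjusted p = 0.00638), and adding IBET858 to BDNF lowered it most (-0.95 ± 0.069, adjusted p = 4.85e-10). Both agents against IBET858 gave -0.23 ± 0.069, adjusted p = 0.0201, not called without replicate 3 of both agents (-0.17, adjusted p = 0.131), without IBET858 replicate 1 (-0.23, adjusted p = 0.0577) and without IBET858 replicate 2 (-0.22, adjusted p = 0.0654). The difference between IBET858 and DMSO at 2 h was -0.45, adjusted p = 2.13e-05 with the median of the 3 probe sets, and was not called with plain probe sets only (-0.18, adjusted p = 0.192). The BDNF rise with plain probe sets only was 0.29, adjusted p = 0.0176. At 12 h the group means lay between 0.045 with both agents and -0.081 with DMSO, and 0 of the 5 pairwise limma comparisons passed, also at an unadjusted p under 0.05 (the smallest was 0.0839, for both agents against DMSO).

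Klf15, a metabolic regulator of amino acid and glucose use and a glucocorticoid target, was raised late. At 12 h Klf15 stood at 0.72, 0.86 and 0.79 with both agents, 0.64, 0.68 and 0.62 with BDNF, 0.75, 0.93 and 0.72 with IBET858 and -0.056, 0.15 and 0.10 with DMSO. All treated arrays lay above all DMSO arrays, and the BDNF arrays lay below those with both agents or IBET858. BDNF raised Klf15 1.5-fold (0.58 ± 0.097, adjusted p = 4.34e-05), IBET858 1.66-fold (0.73 ± 0.097, adjusted p = 1.71e-06) and both together 1.65-fold (0.73 ± 0.097, adjusted p = 1.31e-06). At 2 h Klf15 stood at -0.30, -0.27 and -0.36 with both agents, -0.45, -0.18 and -0.059 with BDNF, 0.007, -0.095 and -0.13 with IBET858 and -0.42, -0.11 and -0.007 with DMSO, and 0 of the 5 pairwise limma comparisons passed with all arrays (1 at an unadjusted p under 0.05). Both agents against DMSO at 2 h gave -0.25, adjusted p = 0.0332 without DMSO replicate 1, and -0.13 ± 0.097, adjusted p = 0.281 with it. Both agents against IBET858 at 2 h gave -0.24 ± 0.097, adjusted p = 0.093, with all arrays with both agents below all IBET858 arrays, and passed without DMSO replicate 1 (adjusted p = 0.0411).

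**Figure D2:**
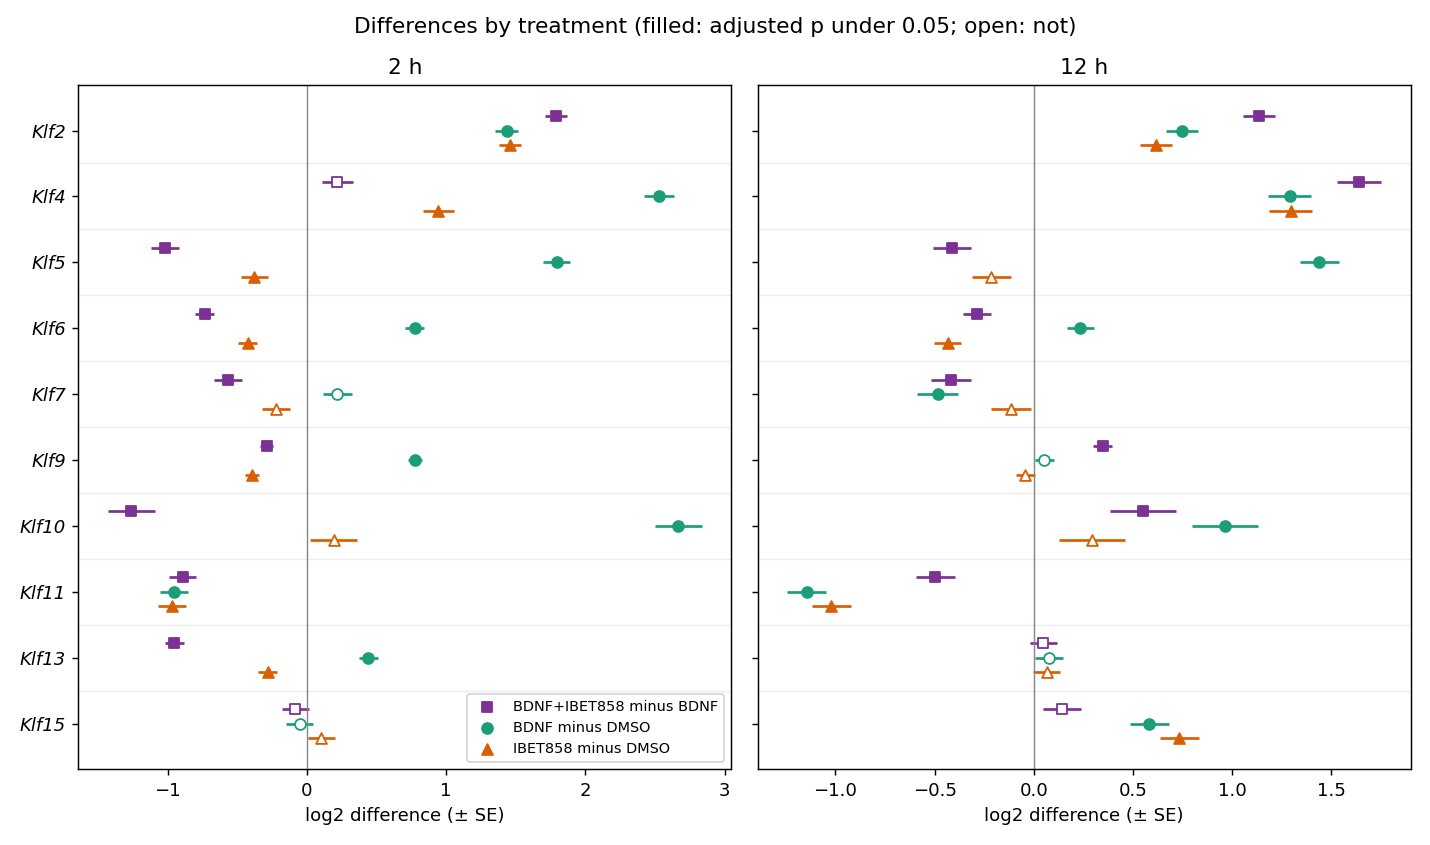
Log2 difference (horizontal axis, bars are the standard error of the limma model) of each gene for 3 comparisons at 2 h (left) and 12 h (right), with filled symbols where the adjusted p was under 0.05. At 2 h adding IBET858 to BDNF lowered 7 of the 10 genes, while Klf2 rose and Klf4 did not pass the test.

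Counted over the 10 members, BDNF against DMSO at 2 h gave 7 higher and 1 lower, where 9.79% and 18.1% of all 18194 genes were called higher and lower. Their median difference was 0.78, against -0.0043 over all genes. IBET858 against DMSO at 2 h gave 2 higher (Klf2 and Klf4) and 5 lower (Klf5, Klf6, Klf9, Klf11 and Klf13), with 5.64% and 9.27% of all genes. IBET858 added to BDNF at 2 h gave 1 higher and 7 lower, with 12.2% and 14.9% of all genes, and a median of -0.65 against 0.046. As counts with no test of the list, these members rose more often than all genes with BDNF at 2 h. They fell more often when IBET858 was added to it. The members were chosen with earlier results of these data known, so this excess cannot be read as a trait of Kruppel-like factors. Both agents against IBET858 at 2 h gave 6 higher and 2 lower (6.44% and 14.7% of all genes), and both agents against DMSO gave 5 and 3 (18.6% and 23.2%). Counted in either direction, 8 members were called for both agents against BDNF (27.1% of all genes), 8 for BDNF (27.9%), 7 for IBET858 (14.9%), 8 for both agents against IBET858 (21.2%) and 8 for both agents against DMSO (41.8%). These comparisons share arrays. At 2 h the arrays of the compared groups did not overlap for 9 members between both agents and BDNF (46.9% of all genes), 10 between both agents and IBET858 (40.3%) and 8 between both agents and DMSO (51%). They did not overlap for 8 members between BDNF and DMSO (41.1%) and 6 between IBET858 and DMSO (30.8%).

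At 12 h a larger share of all genes was called. IBET858 against DMSO gave 3 members higher (Klf2, Klf4 and Klf15; 22.9% of all genes) and 2 lower (Klf6 and Klf11; 25.8% of all genes), which is 5 of 10 in either direction and close to the 48.7% of all genes. BDNF against DMSO gave 6 higher and 2 lower, with 16.9% and 24.2% of all genes. IBET858 added to BDNF gave 4 higher (Klf2, Klf4, Klf9 and Klf10) and 4 lower (Klf5, Klf6, Klf7 and Klf11), with 21.1% and 25.6% of all genes. Both agents against IBET858 gave 6 higher and 2 lower (16.1% and 23.2% of all genes), and both agents against DMSO gave 6 and 2 (22.7% and 30.3%). In either direction, 8 members were called in each of the 4 comparisons other than IBET858 against DMSO, where 46.8% (both agents against BDNF), 39.3% (both agents against IBET858), 53% (both agents against DMSO) and 41% (BDNF against DMSO) of all genes were called. The arrays did not overlap for 9 members between both agents and BDNF (57% of all genes), 8 between both agents and IBET858 (44.7%) and 9 between both agents and DMSO (61.4%). They did not overlap for 9 members between BDNF and DMSO (52.1%) and 6 between IBET858 and DMSO (51.2%).

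The interaction asks whether the effect of IBET858 with BDNF differed from its effect without BDNF. At 2 h 4 members passed the test below 0 and 0 above 0, where 5.29% and 3.11% of all genes were called (8.4% in either direction). Klf10 was furthest from additive (-1.45 ± 0.24, adjusted p = 0.000275), with both agents below the sum of the separate effects. Klf4 (-0.73 ± 0.16, adjusted p = 0.00387), Klf13 (-0.67 ± 0.098, adjusted p = 8.33e-05) and Klf5 (-0.64 ± 0.14, adjusted p = 0.00393) were also below the sum. Klf2 was at 0.33 ± 0.11, adjusted p = 0.0783 and Klf11 at 0.075 ± 0.14, adjusted p = 0.83, so for Klf11 the joint fall of -1.84 lay next to the sum of the separate falls, -1.92. Klf7 was at -0.34 ± 0.14, adjusted p = 0.175 and passed without DMSO replicate 1 (-0.53, adjusted p = 0.000247). Klf6 (-0.31 ± 0.097, adjusted p = 0.055) passed without DMSO replicate 2 (-0.36, adjusted p = 0.0256) or replicate 3 (-0.36, adjusted p = 0.0225), and without IBET858 at 12 h replicate 3 (adjusted p = 0.0499). Klf2 passed without DMSO replicate 3 (0.38, adjusted p = 0.0445) and without either of replicates 1 and 2 of both agents at 12 h (adjusted p = 0.0462 and 0.0426).

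At 12 h 3 members passed the test above 0 and 1 below 0 (8.94% and 7.24% of all genes, 16.2% in either direction). Klf2 (0.52 ± 0.11, adjusted p = 0.00279) and Klf9 (0.39 ± 0.068, adjusted p = 0.000373) stood above the sum of the separate effects. Klf11 (0.53 ± 0.14, adjusted p = 0.0128) was also above the sum, so its joint fall was smaller than the separate falls added. Klf15 (-0.59 ± 0.14, adjusted p = 0.00499) was below it: each agent alone raised Klf15, and both together gave 0.73 where the sum was 1.32. Klf4 was at 0.35 ± 0.16, adjusted p = 0.148, and at 0.50, adjusted p = 0.0185 without DMSO replicate 1. Klf7 was at -0.30 ± 0.14, adjusted p = 0.175 and passed without DMSO at 2 h replicate 1 (adjusted p = 0.01).

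**Figure D3:**
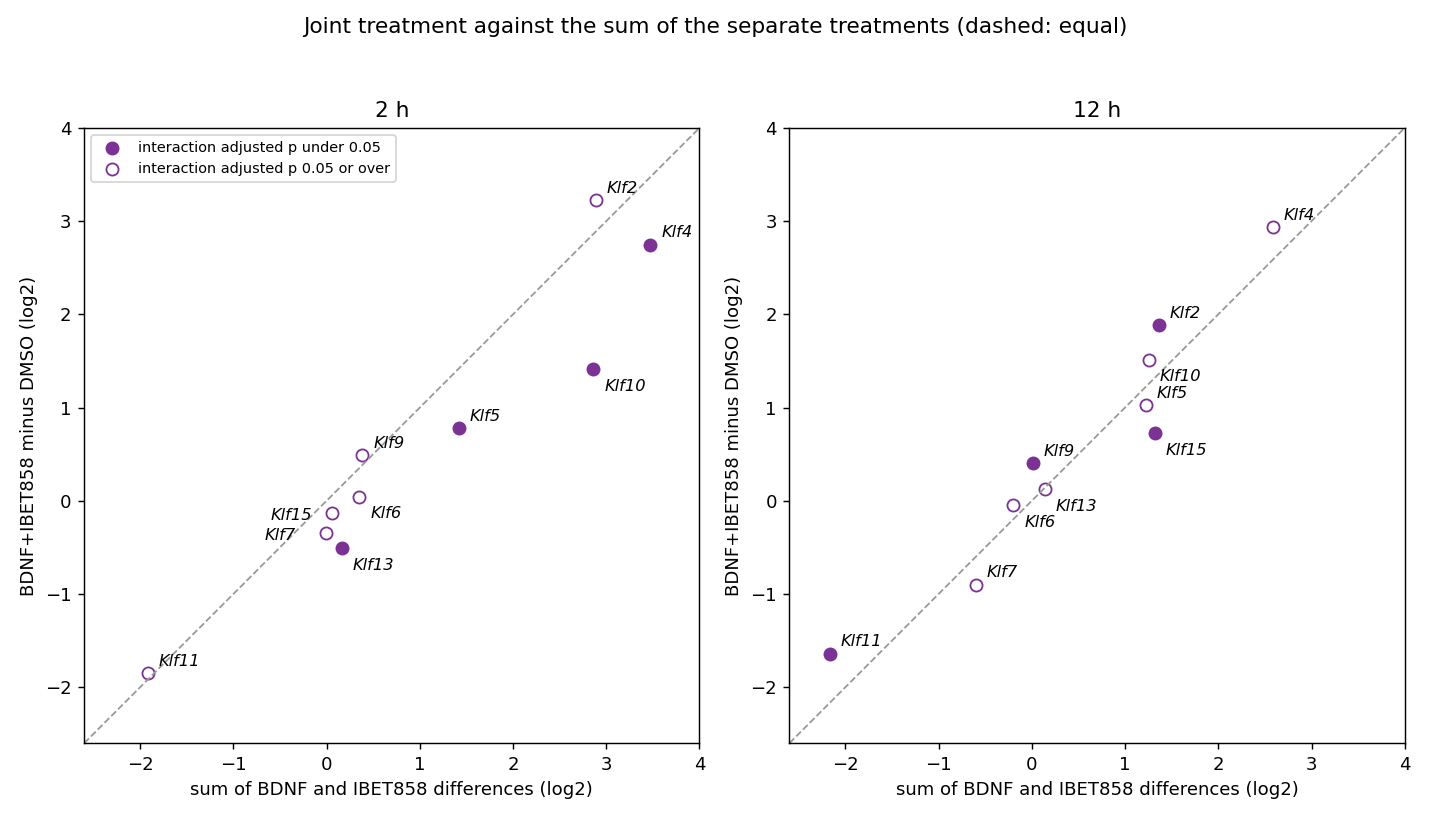
Difference between both agents and DMSO (vertical axis, log2) against the sum of the differences of BDNF and of IBET858 from DMSO (horizontal axis, log2) for the 10 genes at 2 h and 12 h; points on the dashed line are additive, and both axes share the DMSO arrays. Klf10, Klf4, Klf5 and Klf13 lie below the line at 2 h, and Klf2, Klf9 and Klf11 above it at 12 h.

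Most members had a lower BDNF effect at 12 h than at 2 h. The test of that difference called 7 members lower and 1 higher, with 11.9% and 12.9% of all genes called that way (24.8% in either direction). The difference was -1.71 ± 0.24, adjusted p = 1.41e-05 for Klf10, the largest, and smaller for Klf4 (-1.24 ± 0.16, adjusted p = 4.41e-06) and Klf9 (-0.72 ± 0.068, adjusted p = 1.01e-07). Klf15 was the member with a higher effect (0.63 ± 0.14, adjusted p = 0.00154), and Klf5 was at -0.36 ± 0.14, adjusted p = 0.0674, which was not called. The Klf5 difference passed with plain probe sets only (-0.52, adjusted p = 0.00746), without DMSO at 2 h replicate 2 (-0.43, adjusted p = 0.0332) or replicate 3 (-0.43, adjusted p = 0.0308), and without DMSO at 12 h replicate 1 (-0.42, adjusted p = 0.04). Within the BDNF cultures themselves, Klf10 was lower at 12 h than at 2 h (-2.19 ± 0.17, adjusted p = 1.02e-09), and so was Klf4 (-1.91 ± 0.11, adjusted p = 1.68e-11).

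The effect of IBET858 added to BDNF was higher at 12 h than at 2 h for 7 members and lower for 1, with 19.3% and 20.9% of all genes (40.3% in either direction). For Klf10 this difference was 1.81 ± 0.24, adjusted p = 2.14e-06: with IBET858 added it lay below BDNF alone at 2 h and above it at 12 h. Klf9 likewise lay below at 2 h and above at 12 h (0.64 ± 0.068, adjusted p = 1.46e-07). Klf4 (1.42 ± 0.16, adjusted p = 2.03e-07) and Klf13 (1.00 ± 0.098, adjusted p = 4.3e-08) were also higher, and Klf2 was lower (-0.65 ± 0.11, adjusted p = 6.7e-05). Without BDNF, the IBET858 effect was higher at 12 h than at 2 h for 3 members (Klf9, Klf13 and Klf15) and lower for 1, Klf2 (-0.84 ± 0.11, adjusted p = 5.19e-06), where 15.8% and 17.4% of all genes were called (33.1% in either direction). Klf4 was at 0.35 ± 0.16, adjusted p = 0.0923, and passed without DMSO at 2 h replicate 3 (0.43, adjusted p = 0.0432) or DMSO at 12 h replicate 3 (0.45, adjusted p = 0.0313). Klf5 was at 0.16 ± 0.14, adjusted p = 0.43, and at 0.31, adjusted p = 0.0288 without DMSO at 2 h replicate 1. In DMSO cultures alone, 2 members changed between the times, where 7.54% of all genes did. Klf4 (-0.67 ± 0.11, adjusted p = 0.0007) and Klf9 (-0.44 ± 0.048, adjusted p = 9.37e-06) were both lower at 12 h.

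Ordered by group mean, 29 of 70 neighbouring pairs of groups differed by the limma test. The pairs were formed by sorting the same means that are tested, and no share over all genes was computed. This count therefore describes the order and cannot be called high or low. For Klf2, both agents at 2 h (mean 2.13) stood above both agents at 12 h (0.77), and that above IBET858 at 2 h (0.36). IBET858 and BDNF at 2 h (0.34) did not differ beyond their spread (adjusted p = 0.893), nor did the DMSO groups (adjusted p = 0.931). For Klf4, the highest pair, both agents (1.94) and BDNF (1.72) at 2 h, did not pass (adjusted p = 0.154), and DMSO at 12 h (-1.48) was lowest, below DMSO at 2 h (-0.81, adjusted p = 0.0007). Klf10 had BDNF at 2 h (2.26) alone at the top, and none of its neighbouring pairs from BDNF at 12 h downward passed. Among these pairs, IBET858 against DMSO passed without DMSO at 2 h replicate 1, at 2 h (0.50, adjusted p = 0.00382) and 12 h (0.29, adjusted p = 0.0197). Klf11 had the DMSO groups at the top and both agents at 12 h (-0.50) and 2 h (-0.93) at the bottom, with the other 4 groups between 0.12 and -0.055 and no passing pair among them. Klf5, Klf6, Klf7, Klf9 and Klf13 were highest with BDNF at 2 h. The top groups of Klf7 were, in order, BDNF at 2 h, DMSO at 12 h, IBET858 at 12 h and DMSO at 2 h. No neighbouring pair among them passed. Without DMSO at 2 h replicate 1, the first and last of these groups, BDNF and DMSO at 2 h, differed by the limma test (0.41, adjusted p = 3.87e-05). Klf15 had its 3 treated groups at 12 h on top, with DMSO at 12 h (0.066) next below and separated from them (adjusted p = 4.34e-05).

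The probe sets of a gene agreed for some members and not for others. The 2 probe sets of Klf4 had a correlation of 0.99 over the 24 arrays, and the 5 of Klf6 had 0.92 to 0.96. Among the 3 probe sets of Klf13 the lowest correlation was -0.33 and the highest 0.94. Probe sets 1432543_a_at and 1436316_at of Klf13 fell when IBET858 was added to BDNF at 2 h (-1.41 ± 0.078 and -1.62 ± 0.074), while 1456030_at was at 0.17 ± 0.13 and passed in none of the 15 comparisons. The mean over the 3 thus understates what the first pair measured. The same held for Klf5, whose probe sets 1451739_at and 1451021_a_at rose with BDNF at 2 h by 2.94 ± 0.16 and 2.10 ± 0.15, against 0.35 ± 0.12 for 1430255_at. In Klf7, 3 probe sets fell with BDNF at 12 h (log2 differences -0.72 ± 0.10, -0.58 ± 0.11 and -0.69 ± 0.10), and 1419356_at was at 0.057 ± 0.15. In Klf9, all 7 probe sets rose with BDNF at 2 h, from 0.43 ± 0.11 for 1452723_at to 1.15 ± 0.074 for 1436763_a_at, and 1452723_at alone was not called when IBET858 was added (-0.03 ± 0.11). Which part of each transcript a probe set reads is not given in the sources used here.

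**Figure D4:**
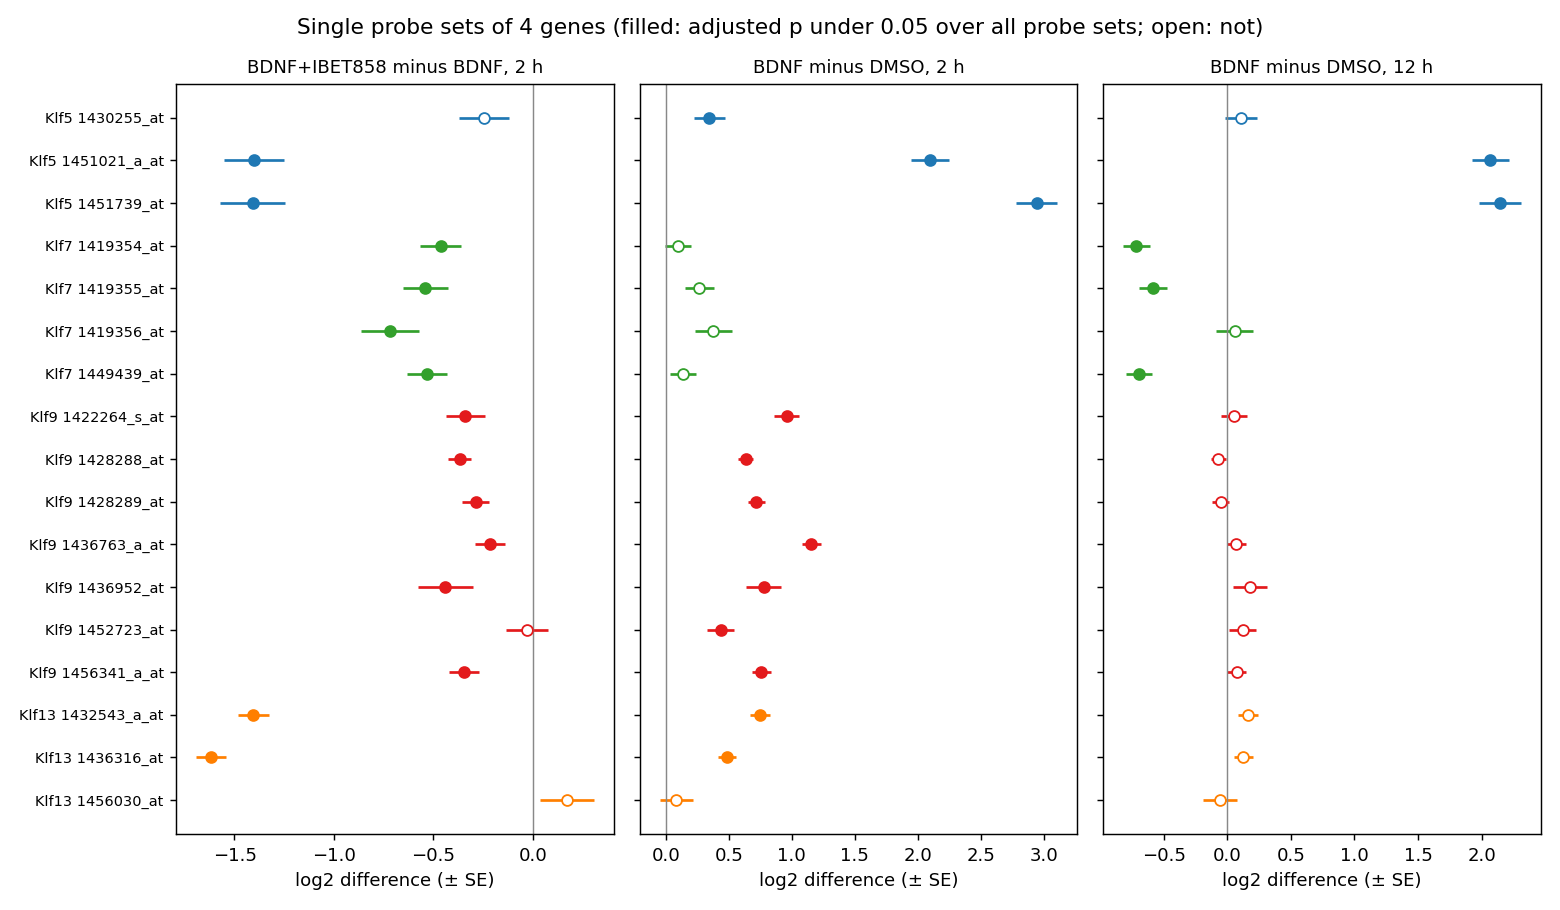
Log2 difference (horizontal axis, bars are the standard error) of the single probe sets of Klf5, Klf7, Klf9 and Klf13 in 3 comparisons, with filled points where the adjusted p over all probe sets was under 0.05. In the left panel, 1430255_at of Klf5 (-0.25) and 1456030_at of Klf13 (0.17) are open while the other probe sets of these genes lie at -1.40 or lower.

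Over the 8 group means, which share arrays and scaling, some members resembled each other. Klf2 and Klf4 had a Pearson correlation of 0.89, and Klf11 ran opposite to both (-0.93 with Klf2 and -0.89 with Klf4). Klf9 and Klf10 had 0.90, Klf5 and Klf6 0.88, and Klf4 and Klf10 0.87. Among the other named genes, those most like each member over the 8 group means were Hspa8 (r = 0.994) for Klf2, Gadd45b (r = 0.980) for Klf4, Zmiz1 (r = 0.975) for Klf5, F3 (r = 0.946) for Klf6 and Egln2 (r = 0.955) for Klf7. For the members that bind SIN3A they were Socs3 (r = 0.962) for Klf9, Prag1 (r = 0.984) for Klf10, Zbtb8a (r = 0.983) for Klf11 and Tet2 (r = 0.971) for Klf13, and for Klf15 the closest was Rrp36 (r = 0.986). After Gadd45b, Klf4 was most like Ccn1 (r = 0.976), and after Socs3, Klf9 was most like Sema4c (r = 0.960) and Pdgfa (r = 0.956). With 8 points and 18194 genes, high values are common, and these are descriptions.

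Of 13 other Sp and Kruppel-like factors tested, 4 rose and 0 fell with BDNF at 2 h, 1 rose and 3 fell with IBET858, and 0 rose and 6 fell when IBET858 was added to BDNF. The shares of all genes called higher and lower were 9.79% and 18.1%, 5.64% and 9.27%, and 12.2% and 14.9% in these comparisons. The median difference of the 13 in the last comparison was -0.16, against 0.046 over all genes. Klf16 rose with BDNF (1.36 ± 0.085) and fell when IBET858 was added (-1.18 ± 0.085). Sp1, a general activator that binds GC boxes, fell with IBET858 at 2 h (-0.99 ± 0.054) and when it was added to BDNF (-1.36 ± 0.054). At 12 h 8 of 13 rose and 0 fell with BDNF, with a median of 0.31 against -0.012 over all genes, 1 rose and 3 fell with IBET858, and 2 rose and 4 fell when IBET858 was added to BDNF. The shares of all genes were 16.9% and 24.2% with BDNF, 22.9% and 25.8% with IBET858, and 21.1% and 25.6% when IBET858 was added. Sp4, a neuronal relative of Sp1, rose with IBET858 at 12 h (1.38 ± 0.15) and with BDNF (0.91 ± 0.15), while Sp1 fell with IBET858 (-0.88 ± 0.054).

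Of 15 upstream regulators tested, 2 rose and 4 fell with BDNF at 2 h, and 2 rose and 2 fell with IBET858. These counts lay near the shares of all genes, 9.79% higher and 18.1% lower with BDNF, and 5.64% and 9.27% with IBET858. Srf, the serum response factor, rose with BDNF (0.92 ± 0.068) and fell when IBET858 was added (-0.57 ± 0.068). Creb1 rose when IBET858 was added to BDNF (1.22 ± 0.049), the only one of the list to rise there, while 4 fell (list median -0.099, all genes 0.046). Of all genes, 12.2% rose and 14.9% fell in that comparison. At 12 h 5 rose and 7 fell with IBET858, and 3 rose and 8 fell with BDNF, where 22.9% and 25.8% of all genes rose and fell with IBET858, and 16.9% and 24.2% with BDNF. Map2k5, the kinase above ERK5 and MEF2, fell with IBET858 at 12 h (-1.01 ± 0.057) and with BDNF (-0.64 ± 0.057). Nr3c2, the mineralocorticoid receptor gene, fell with IBET858 at 12 h (-1.26 ± 0.099), and the thyroid receptor gene Thra fell with BDNF (-0.71 ± 0.048).

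Of 12 cofactors and ubiquitin ligases, 0 rose and 6 fell when IBET858 was added to BDNF at 2 h (median -0.15 against 0.046 over all genes, of which 12.2% rose and 14.9% fell), among them the acetyltransferase gene Ep300 (-0.85 ± 0.066). Sin3a, the corepressor of the KLF9 group, fell with BDNF at 2 h (-0.49 ± 0.06) and rose with IBET858 at 12 h (1.02 ± 0.06), when 4 of the list rose and 3 fell (22.9% and 25.8% of all genes). Of 11 genes reported as targets of these factors, 3 rose and 1 fell with BDNF at 2 h, and 4 rose and 4 fell at 12 h. Of all genes 9.79% rose and 18.1% fell at 2 h, and 16.9% rose and 24.2% fell at 12 h. The list medians were 0.06 and 0.076, against -0.0043 and -0.012 over all genes. Cdkn1a, the cell cycle inhibitor p21, rose by 1.77 ± 0.069 at 2 h and 2.14 ± 0.069 at 12 h with BDNF, and Smad7, a TGF-beta pathway inhibitor, by 1.02 ± 0.074 and 1.38 ± 0.074. With IBET858 against DMSO 3 of the 11 rose and 0 fell at 2 h, and 3 rose and 4 fell at 12 h (5.64% and 9.27% of all genes at 2 h, 22.9% and 25.8% at 12 h), led at 12 h by the glucose transporter gene Slc2a4 (0.53 ± 0.057).

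Klf2 and Klf4 are also abundant in endothelial cells, so markers of other cells are set beside them. Of all genes, 18.6% rose and 23.2% fell with both agents against DMSO at 2 h, and 22.7% and 30.3% at 12 h. With BDNF the shares were 9.79% and 18.1% at 2 h, and 16.9% and 24.2% at 12 h. With IBET858 they were 5.64% and 9.27% at 2 h, and 22.9% and 25.8% at 12 h. The marker counts below are to be read beside these shares. Of 8 endothelial and mural markers, 0 rose and 0 fell with IBET858 at 2 h, and 0 rose and 0 fell with BDNF at 2 h, where Klf2 and Klf4 rose. At 12 h, where Klf2 and Klf4 also rose with each agent, Pecam1 rose (0.33 ± 0.12) and Pdgfrb fell (-0.28 ± 0.096) with IBET858, and Rgs5 (0.33 ± 0.10) and Flt1 (0.18 ± 0.073) rose with BDNF. With both agents at 2 h 3 of 8 rose against DMSO, Pecam1 (3.60 ± 0.12), Kdr (0.49 ± 0.13) and Rgs5 (0.34 ± 0.10), while Cdh5 (0.094 ± 0.074), Cldn5 (0.19 ± 0.11), Flt1 (0.15 ± 0.073), Pdgfrb (-0.04 ± 0.096) and Tek (0.11 ± 0.10) were not called. The mean of the 8 ranged over arrays from 0.50 to 0.63 with both agents and from -0.089 to -0.01 with DMSO. At 12 h 1 of 8 rose and 1 fell with both agents. Of 8 microglial markers, 4 rose at 2 h with both agents against DMSO (0.26 to 0.42 against 0.027 to 0.10) and 4 fell at 12 h (-0.34 to -0.29 against -0.083 to -0.054). Of 8 astrocyte markers, 1 rose and 5 fell at 12 h with both agents (-0.31 to -0.21 against -0.13 to 0.34), and of 8 neuronal markers 3 rose and 5 fell. The 8 progenitor markers gave 3 higher and 0 lower at 12 h, and the 7 oligodendrocyte markers tested gave 0 and 3. These lists also held markers that rose at 2 h with both agents against DMSO. They were Nefl (3.07 ± 0.11), Sox9 (2.71 ± 0.14) and Sox10 (0.22 ± 0.086), of the neuronal, astrocyte and oligodendrocyte lists. Of the progenitor list they were Vim (0.36 ± 0.075), Top2a (0.34 ± 0.10), Eomes (0.32 ± 0.13) and Hes1 (0.30 ± 0.11). The other markers of these lists were not called there. The other lists also had members that moved with a single agent. Neuronal markers gave 1 higher and 1 lower with BDNF and 1 higher and 0 lower with IBET858 at 2 h, and 3 higher and 4 lower with BDNF and 1 higher and 5 lower with IBET858 at 12 h. The neurofilament gene Nefl rose with BDNF (1.52 ± 0.11) and IBET858 (1.20 ± 0.11) at 2 h. It also rose with BDNF (2.22 ± 0.11) and IBET858 (1.54 ± 0.11) at 12 h. Rbfox3, which encodes the neuronal marker NeuN, fell with BDNF (-1.01 ± 0.051) and IBET858 (-0.65 ± 0.051) at 12 h. With BDNF at 12 h Map2 (0.55 ± 0.091) and Snap25 (0.31 ± 0.096) rose, while Tubb3 (-0.49 ± 0.069), Syt1 (-0.31 ± 0.075) and Stmn2 (-0.26 ± 0.045) fell. Of the astrocyte markers Sox9 alone was called at 2 h, higher with BDNF (1.68 ± 0.14) and IBET858 (0.90 ± 0.14). At 12 h the astrocyte list gave 0 higher and 3 lower with BDNF and 1 higher and 4 lower with IBET858, and the microglial list 0 higher and 3 lower with BDNF and 0 higher and 4 lower with IBET858, after 0 calls with either agent at 2 h. Of the progenitor markers Vim rose with BDNF at 2 h (1.07 ± 0.075) and 12 h (2.34 ± 0.075), and at 12 h the list gave 4 higher and 0 lower with BDNF and 2 higher and 1 lower with IBET858. The oligodendrocyte list gave 0 calls with either agent at 2 h, and 1 higher and 1 lower with BDNF and 1 higher and 1 lower with IBET858 at 12 h. The part of these markers in the values of the Kruppel-like factors was not tested.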

How the data were processed

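RNA was measured on 24 Affymetrix arrays, 3 in each of 8 groups taken from the sample titles. The deposited values are log2 intensities made by the authors with RMA (background adjustment, quantile normalisation, summary per probe set), per the submitters' processing notes; the log base is that of RMA and is not stated in the table. Each of the 45101 probe sets had a deposited median of 0, within 1e-06. Gene names came from the annotation of the array (34958 with 1 symbol, 932 with several, 9211 not listed), with 34754 symbols updated through RefSeq (GRCm38.p6). Values of probe sets naming 1 gene were averaged, which gave 18194 genes. No dim genes were removed, since centring removes levels.

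One limma 3.58.1 model (R 4.3.3) held a mean for each group, with 16 residual degrees of freedom. Its 15 contrasts were two-sided, with Benjamini-Hochberg adjustment over all genes, and an adjusted p under 0.05 was a call. Errors after ± are model standard errors. Order of groups used the pairwise contrasts of the same model, and single probe sets were fitted likewise. The fit was tested on simulated data. All 10 members are named; the related genes named are up to 3 called genes per list with the largest change in a contrast, and the 3 genes most like each member by Pearson correlation of group means. Some cell type markers were named after their values were seen. The members, lists, motifs and tests were chosen with earlier results of these data known. Alternatives were the median of probe sets, plain probe sets only (IDs without _s_, _x_ or _a_), array medians set to 0, array weights, robust eBayes, only the groups compared, the replicate number as a block, and leaving out arrays.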

Additional observations from a re-analysis of the deposited data

Results flagged for a closer look

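The effect of IBET858 differed between cultures with and without BDNF, by the interaction term of the limma model, for 4 members at each time. At 2 h these were Klf10 (-1.45 ± 0.24), Klf4 (-0.73 ± 0.16), Klf13 (-0.67 ± 0.098) and Klf5 (-0.64 ± 0.14). At 12 h they were Klf11 (0.53 ± 0.14), Klf2 (0.52 ± 0.11), Klf9 (0.39 ± 0.068) and Klf15 (-0.59 ± 0.14). No member passed at both times. Of all genes, 8.4% were called for the interaction at 2 h and 16.2% at 12 h.

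The BDNF effect differed between 12 h and 2 h for 8 members, where 24.8% of all genes were called. It was lower at 12 h for Klf10 (-1.71 ± 0.24), Klf4 (-1.24 ± 0.16), Klf9 (-0.72 ± 0.068), Klf7 (-0.70 ± 0.14), Klf2 (-0.69 ± 0.11), Klf6 (-0.54 ± 0.097) and Klf13 (-0.36 ± 0.098), and higher for Klf15 (0.63 ± 0.14). The Klf13 difference was not called with plain probe sets only (-0.25, adjusted p = 0.167).

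The IBET858 effect without BDNF differed between 12 h and 2 h for Klf2 (-0.84 ± 0.11), Klf15 (0.63 ± 0.14), Klf9 (0.35 ± 0.068) and Klf13 (0.35 ± 0.098). That is 4 of the 10 members, near the 33.1% of all genes called. The Klf13 difference was not called with plain probe sets only (0.28, adjusted p = 0.0913), and was 0.23, adjusted p = 0.0301 with array weights.

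The effect of IBET858 added to BDNF was higher at 12 h than at 2 h for Klf10 (1.81 ± 0.24), Klf4 (1.42 ± 0.16), Klf13 (1.00 ± 0.098), Klf9 (0.64 ± 0.068), Klf5 (0.61 ± 0.14), Klf6 (0.45 ± 0.097) and Klf11 (0.40 ± 0.14), and lower for Klf2 (-0.65 ± 0.11). The Klf11 difference (adjusted p = 0.0279) was lost without BDNF at 12 h replicate 2 (0.38), without BDNF at 2 h replicate 1 (0.38), without replicate 1 of both agents at 2 h (0.27), and without replicate 1 (0.38) or 2 (0.38) of both agents at 12 h, with adjusted p between 0.0528 and 0.0994. Klf15 was at 0.23 ± 0.14, adjusted p = 0.209, and at 0.34, adjusted p = 0.0475 without BDNF at 2 h replicate 1. Of all genes, 40.3% were called for a difference in the effect of added IBET858 between the times.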

How the results depend on the processing

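No member reversed a call in the 10 genes by 15 contrasts under the alternatives run. Of these 150 values, all 150 kept their side of the threshold with the median of probe sets, with array medians set to 0, with robust eBayes and with the replicate number as a block. Plain probe sets lost 4 calls and gained 1, fits of the compared groups alone lost 2 and gained 3, and leaving out the 2 arrays that stood apart lost 1 and gained 8. Array weights gained 12 and lost 0, among them 3 interactions at 2 h, so that 7 members passed there in place of 4 (Klf2 0.34, Klf6 -0.20, Klf7 -0.54). No share over all genes was computed under the alternatives, so their counts of members cannot be called high or low. Leaving out each array in turn kept 3562 of 3600 values on their side, with 14 calls lost and 24 gained. The interactions at 2 h then ranged from 4 to 6 called members, and the neighbouring pairs of groups from 25 to 37 of 70 (28 with the replicate block, 29 without it). The calls lost when 1 array was left out were those of Klf5, Klf6, Klf7, Klf11 and Klf13 whose values are given with the results. Replicate numbers are not known to mark a shared culture. Deviations of same-numbered arrays correlated between -0.20 and 0.51 (median 0.0029), with 10 of 84 pairs over 0.1. Those of different-numbered arrays correlated between -0.44 and 0.34 (median -0.00063), with 17 of 168 pairs over 0.1. The block changed no call among the 150 values. For the neighbouring pairs only the total called was kept, so gains and losses that cancel would not show. A filter on dim genes was not run because centred values hold no level, and the number of arrays, not a depth, limits the precision.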
